A study of Rattus norvegicus with 56 samples.

Results

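The parietal neocortex of sham-treated male Long-Evans rats was compared between aged and young animals, with 1 microarray from each rat. The members were the 4 first arrays of aged unimpaired sham rats (AU_Sham) and the 4 first arrays of young sham rats (Y_Sham), chosen by their titles, 8 of the 56 arrays in the series. The aged rats were 26 to 27 months old and had learned the Morris water maze as well as young animals, and the young rats were 6 to 7 months old. The remaining arrays came from impaired aged rats (AI), from rats given intermittent theta burst stimulation (iTBS), short bursts of magnetic pulses applied over the skull, from hippocampus, and from technical repeats.

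Long-Evans is an outbred strain, and the labels name no engineered allele. Each of the 8 rats was lightly anesthetized with isoflurane, sedated with dexmedetomidine injected into muscle, and woken with Antisedan, and for the sham procedure the coil was held away from the head. Dexmedetomidine and Antisedan were each given at 0.03 mg/kg in aged rats and 0.035 mg/kg in young rats, so dose and age cannot be told apart. Tissue was taken 48 h after the procedure from the neocortex under the coil and frozen whole, so each array measured a mixture of cells. In such tissue fewer cells of a type and less RNA per cell cannot be told apart.

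The question behind the comparison was which transcripts differ with age in cortex when no stimulation has been given. In the aged rodent brain, glial cells are known to raise complement, antigen presentation and interferon-induced genes, while division of progenitor cells declines. Complement is a cascade of secreted proteins in which C1q binds a surface, C1r and C1s cleave C4 and C2, and the resulting convertase splits C3. Microglia carry receptors for the C3 fragments, and tagged synapses or debris can be taken up by them.

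Values are normalized log2 signals, the z-score of each log2 spot signal within its array multiplied by the mean SD of the 24 first cortex arrays, so 0 is the mean of an array and a difference of 1 is close to a doubling. A probe was tested where the scanner software called it well above background on at least 3 of the 24 first cortex arrays, which left 32592 probes, 17048 of them with 1 gene symbol. A probe is called different when its Benjamini-Hochberg adjusted p from limma was under 0.05, and SE is the standard error of that fit. Levels of different probes cannot be compared with each other.

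The arrays carried the labelled tissue, and 1 young array stood apart. All 17 tested neuronal markers were well above background on every array, and in the sham rats 11 of 20 cortical layer markers were called higher in cortex than in hippocampus, where 15.6% of all probes were. Of 11 hippocampal markers, 8 were called higher in hippocampus, where 18% of all probes were. The share of the array's probes well above background was 62.4% ± 1.12 (SD, n = 4) in AU_Sham and 64.7% ± 0.923 (SD, n = 4) in Y_Sham, with every aged array below every young one and a two-sided exact permutation p of 0.0286, the smallest that 4 against 4 allows. Component 1 of the 8 arrays, with 28.7% of the variance, placed Y_Sham 4 at 122 and the other 7 between -28.9 and -4.39. On Y_Sham 4, 1448 spots were left out as outliers, against 291 to 875 on the others, and 33 probes with a signal above 2 on each of the other 7 arrays were not above background, against 0 on each of those. On component 2 the 3 arrays scanned on day 2, Y_Sham 1, Y_Sham 2 and AU_Sham 1, lay lowest, and within each day the aged arrays lay above the young ones. Over the 24 cortex arrays, slide accounted for 82.6% of component 1, scan day for 69.1% and group for 16.5%.

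**Figure D1:**
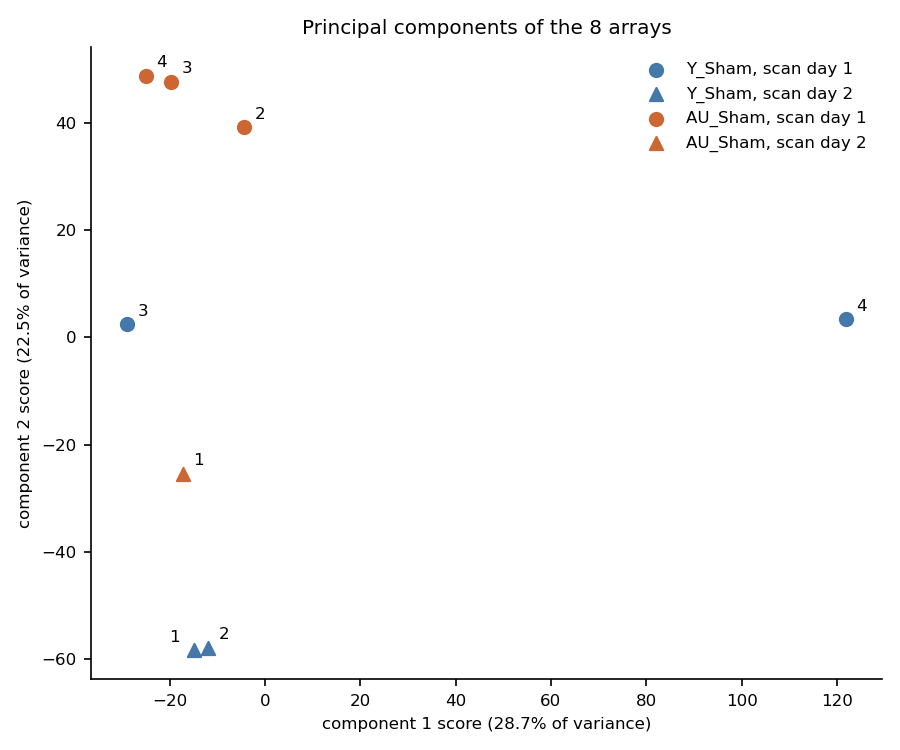
Scores of the 8 arrays on components 1 (28.7% of the variance) and 2 (22.5%) of the normalized log2 signals, with colour for age group, shape for scan day and the animal's number beside each point. Y_Sham 4 lies alone at the right, and the 3 arrays of scan day 2 lie at the bottom.

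Of the 32592 probes, 18 were called, 14 higher and 4 lower in aged cortex, or 0.0552% of those tested, 0.043% higher and 0.0123% lower. At an unadjusted p under 0.05, 1229 probes (3.77%) were higher and 1773 (5.44%) lower, and the median difference over all probes was -0.02. The 4 called probes with a gene symbol were those of the complement genes C4a and C4b and the leukocyte receptor Cd69, which rose, and the kinetochore gene Spc25, which fell. The other 14 belong to transcripts known here only by an accession, 11 of which rose and 3 fell. The groups did not overlap in any of the 18, while 2.13% of all probes were separate with AU_Sham higher and 3.59% with it lower, and nothing is read from this because the 18 were chosen by p on the same arrays. Without Y_Sham 4, 15 of the 18 remained called. Under each animal left out in turn, 4 remained called throughout, XR_589982, XR_598705 and XR_589995 among the higher and BF551334 among the lower. Fits of the 8 arrays alone with the slide or the scan day as a block, which were added after the data had been seen, called 0 probes in limma, with 4159 and 3363 at an unadjusted p under 0.05.

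**Figure D2:**
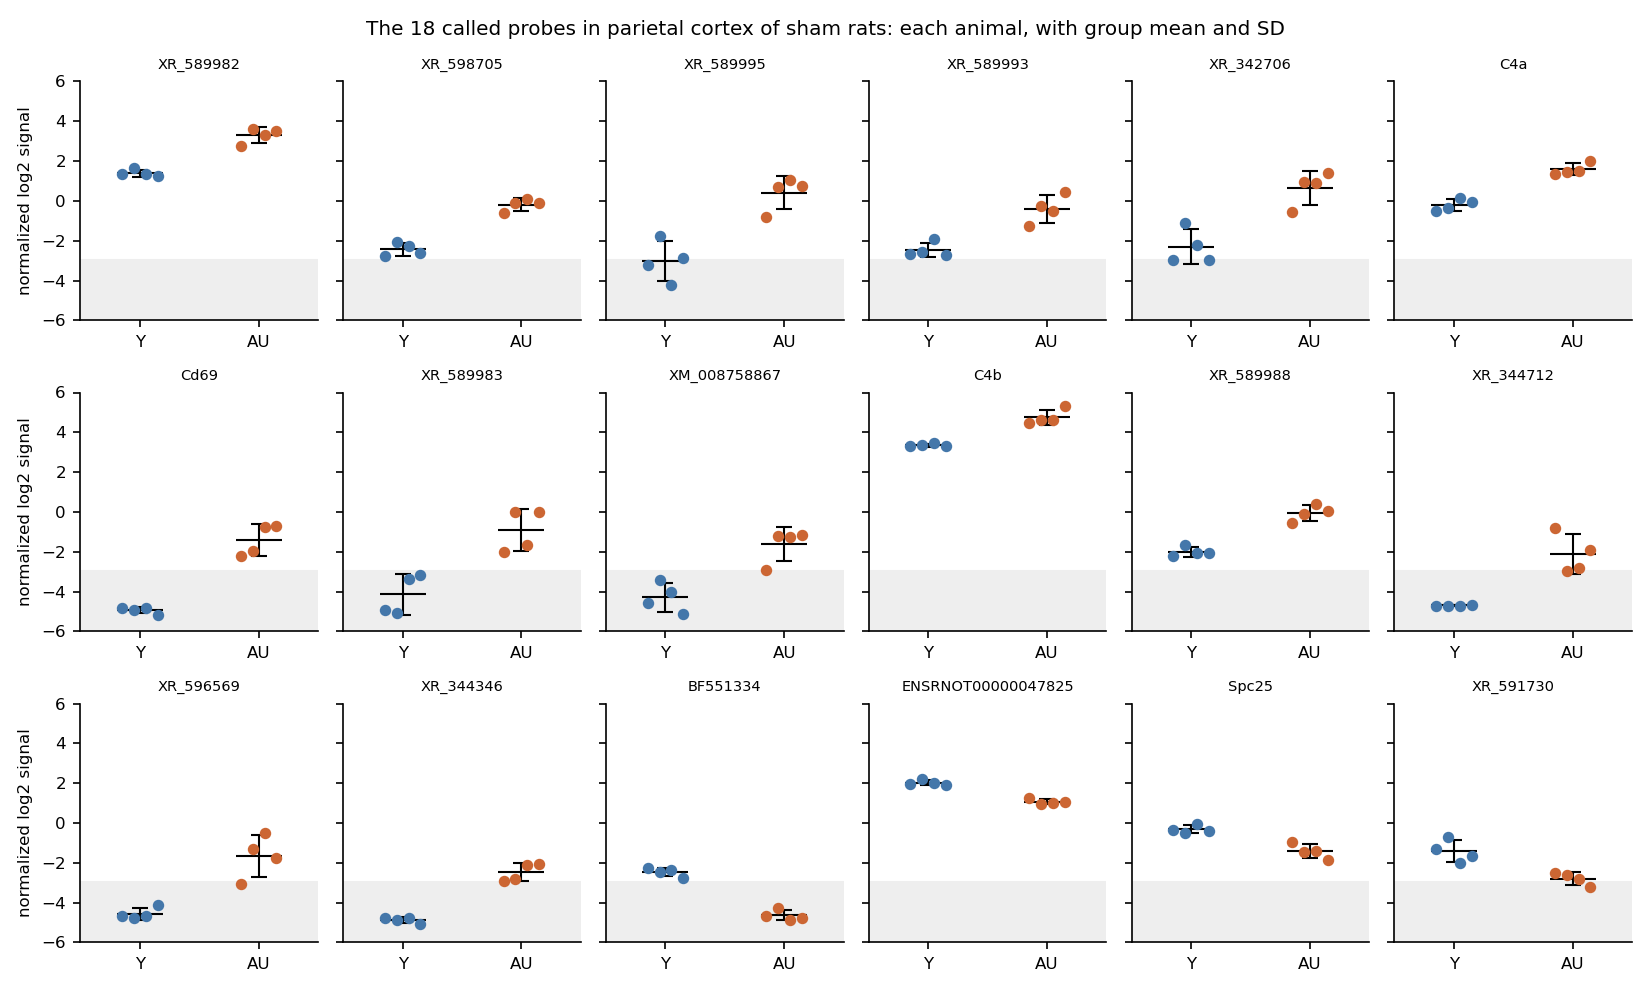
Normalized log2 signal (vertical axis) of each young (Y, blue) and aged unimpaired (AU, orange) sham rat for the 18 called probes, 1 panel a probe, with group mean and SD (n = 4 each). The grey area lies below the lowest background limit of the 8 arrays, and in each panel the orange and blue points do not overlap.

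**Figure D3:**
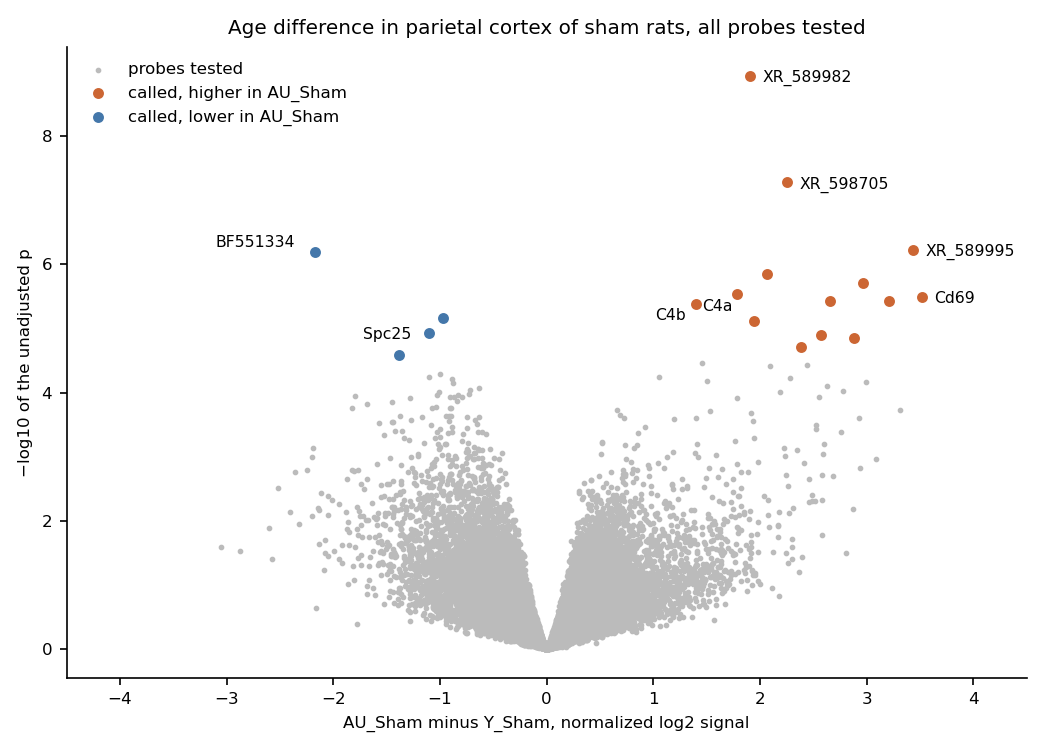
Difference between AU_Sham and Y_Sham (horizontal axis, normalized log2 signal) against minus log10 of the unadjusted p for the 32592 probes tested. The 14 orange points to the right and the 4 blue points to the left are the called probes, with XR_589982 at the top.

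Probes assigned to both rat genes of complement component 4 rose in the aged cortex. C4 is cleaved early in the classical and lectin pathways, and its larger fragment binds the target surface and becomes part of the enzyme that splits C3. C4a and C4b are near-identical copies on chromosome 20, so signal on one probe may include transcript of the other, and the values of the 2 genes are uncertain as separate measurements. The 250 bases before the start of each gene are shown to make this likeness visible. Both are from RefSeq, build GRCr8, plus strand, 5′ to 3′, C4a at chr20:4010107-4010356 and C4b at chr20:4201729-4201978, with the E-box CACGTG in capitals.
C4a: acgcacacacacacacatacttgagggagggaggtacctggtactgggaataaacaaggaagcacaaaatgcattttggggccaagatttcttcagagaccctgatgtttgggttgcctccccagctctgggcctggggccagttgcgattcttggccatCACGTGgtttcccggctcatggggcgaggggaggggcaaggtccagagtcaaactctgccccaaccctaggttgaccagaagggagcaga
C4b: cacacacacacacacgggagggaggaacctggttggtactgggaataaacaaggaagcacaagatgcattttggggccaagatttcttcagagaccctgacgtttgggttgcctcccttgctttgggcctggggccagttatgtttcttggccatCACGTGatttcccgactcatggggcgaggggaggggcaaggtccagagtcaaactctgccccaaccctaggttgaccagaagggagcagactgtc
The 2 stretches were identical at 226 of 245 aligned positions, or 92.2%, with 0 gaps. Each held CACGTG once, 90 bases before the start in C4a and 95 bases before it in C4b, on a search of both strands, which read alike for this motif. The same letters occur in 5.59% of 33469 RefSeq promoter windows of equal length, and a match is a description of the letters only.

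The C4a probe (NM_031504) read 1.35, 1.47, 1.52 and 2.03 in AU_Sham 1 to 4. In Y_Sham 1 to 4 it read -0.52, -0.35, 0.15 and -0.06. Every aged rat lay above every young rat, with AU_Sham 4 highest. The fitted difference was 1.79 ± 0.28 (SE), a fold of 3.46, with a limma adjusted p of 0.0121. Within scan days the difference was 1.63 on day 1 and 1.79 on day 2.

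The C4b probe (NM_001002805) read 4.48, 4.60, 4.64 and 5.33 in AU_Sham 1 to 4, and 3.30, 3.38, 3.44 and 3.30 in Y_Sham 1 to 4. The groups were again separate and AU_Sham 4 was again highest. The difference was 1.40 ± 0.23 (SE), a fold of 2.65, with an adjusted p of 0.0121. A further C4b probe gave 1.40 ± 0.32 with an adjusted p of 0.119, above the threshold. For both genes the call was lost when AU_Sham 4 or Y_Sham 1 was left out, with adjusted p up to 0.064.

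C3, the central component that C4 activity leads to, read 4.32 ± 0.39 (SD, n = 4) in aged and 3.13 ± 0.51 in young cortex, without overlap. Its difference of 1.19 ± 0.27 (SE) did not pass the correction (adjusted p 0.121, unadjusted p 0.000257). The complement list of 23 measured genes held 2 called members, the C4 probes that may not be separate measurements, where 0.03% of the 13327 named genes were called. It had 18 members fitted higher, 5 of them and 0 lower ones at an unadjusted p under 0.05, where 3.7% of named genes were higher and 4.53% lower at that level. Its median difference was 0.27, beside a median of 0.00 over all named genes. The 3 further members at that level were C3, the alternative pathway factor Cfb (0.65) and Clu, a complement inhibitor also known as clusterin (0.45).

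Upstream and downstream parts of the cascade showed smaller differences, and none passed the test. The C1q chains, made mainly by microglia in brain, differed by 0.37 (C1qa), 0.30 (C1qb) and 0.27 (C1qc), with overlapping groups. C1r differed by 0.19 and C1s by 0.15. C2, the partner of C4 in the convertase, was separate between groups, at 1.96 ± 0.16 (SD, n = 4) in aged and 1.52 ± 0.17 in young cortex, with an unadjusted p of 0.111. Itgam, a subunit of a C3 fragment receptor, differed by 0.10.

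Most of the called transcripts had no gene symbol in the tables used. Of the 11 that rose, 10 carry RefSeq XR accessions, the prefix of predicted non-coding RNAs, and 1, XM_008758867, carries that of a predicted mRNA. XR_589982 had the smallest p of all probes tested. It read 2.74, 3.62, 3.32 and 3.54 in AU_Sham 1 to 4 against 1.37, 1.65, 1.35 and 1.23 in Y_Sham 1 to 4. AU_Sham 1 was the lowest aged rat and still lay above every young rat. The difference was 1.90 ± 0.18 (SE), a fold of 3.74, with a limma adjusted p of 3.69e-05.

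XR_598705 read -0.63, -0.09, 0.11 and -0.11 in AU_Sham and -2.79, -2.07, -2.25 and -2.64 in Y_Sham, a difference of 2.26 ± 0.27 (SE) with an adjusted p of 0.000845. XR_589995 read -0.79, 0.69, 1.05 and 0.73 in AU_Sham and -3.24, -1.77, -4.23 and -2.85 in Y_Sham, a difference of 3.44 ± 0.48 with an adjusted p of 0.00513. AU_Sham 1, the only aged array of scan day 2, was the lowest aged array for both, and the difference of XR_589995 was 4.36 within day 1 and 1.71 within day 2. In Y_Sham, XR_598705 was well above background on 3 of 4 arrays and XR_589995 on 1 of 4.

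The other transcripts that rose with signal on some young arrays were XR_589993 (difference 2.07), XR_342706 (2.97) and XR_589988 (1.94), on 2, 2 and 4 of the young arrays. Accession numbers of XR_589982, XR_589983, XR_589988, XR_589993 and XR_589995 lie close together, and whether they come from 1 locus was not tested. A further probe of XR_589983 was above background on 0 aged and 0 young arrays and one of XM_008758867 on 1 aged and 0 young, and neither was called.

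In 6 of the probes that rose, no young array was well above background, so these differences have only a lower bound. Cd69, an early activation receptor of lymphocytes and other leukocytes (NM_134327), read -2.21, -1.98, -0.74 and -0.71 in AU_Sham 1 to 4 and between -5.15 and -4.81 in Y_Sham. All 4 aged arrays and no young array were well above background. Aged cortex was at least 2.57-fold higher, with a limma adjusted p of 0.0121, where the bound sets the aged mean against the lowest signal well above background on each young array. The call was lost with the slide as a block (adjusted p 0.0527) and without AU_Sham 3, AU_Sham 4 or Y_Sham 1 (up to 0.0683).

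Lymphocyte markers were not fitted higher beside Cd69. Of 8 such genes measured, 7 were fitted lower and 1, Cd4, higher in aged cortex. The list level per array, the mean of its members, spanned -1.36 to -1.12 in AU_Sham and -1.52 to -0.08 in Y_Sham. The T cell markers Cd3d and Cd3g differed by -0.25 and -0.15.

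The same kind of bound applies to 5 uncharacterized transcripts. Aged cortex was at least 3.60-fold higher for XR_589983, with all 4 aged arrays above background, and at least 2.21-fold higher for XM_008758867, with 3 of them above it. For XR_596569 the bound was 2.15-fold with 3 aged arrays above background. For XR_344712 and XR_344346, with 2 aged arrays each, it was 1.57-fold and 1.22-fold. The filter on dim probes was passed largely through AU_Sham by these 3, with XR_344712 and XR_344346 above background on 3 of the 24 cortex arrays and XR_596569 on 4, so they could be tested mainly because they were high in that group.

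Of the 4 probes that fell, Spc25 was the single named gene. Spc25 is a subunit of the Ndc80 complex, which ties kinetochores to spindle microtubules in dividing cells. The Spc25 probe (NM_001009654) read -0.97, -1.47, -1.41 and -1.84 in AU_Sham 1 to 4 against -0.34, -0.53, -0.04 and -0.38 in Y_Sham 1 to 4. Every aged rat lay below every young rat. The difference was -1.10 ± 0.19 (SE) with a limma adjusted p of 0.027. The call depended on the scaling, with adjusted p of 0.203 after centring on the 75th percentile, 0.111 after quantile normalization and 0.0571 with the slide as a block.

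The 250 bases before the start of Spc25 are shown because genes of cell division often share a CCAAT box and the letters TTTGAA of the cell cycle homology region. They are from RefSeq, build GRCr8, chr3:74396719-74396968, minus strand, 5′ to 3′, with both motifs in capitals.
Spc25: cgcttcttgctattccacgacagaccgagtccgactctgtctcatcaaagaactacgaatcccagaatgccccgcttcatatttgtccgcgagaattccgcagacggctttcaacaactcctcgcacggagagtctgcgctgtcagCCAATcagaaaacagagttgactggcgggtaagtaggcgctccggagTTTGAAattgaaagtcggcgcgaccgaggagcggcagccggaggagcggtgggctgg
On a search of both strands, CCAAT lay once, 104 bases before the start, and TTTGAA once, 57 bases before it, without overlap. CCAAT occurs in 34.0% and TTTGAA in 16.2% of the 33469 promoter windows. The same search found 3 CCAAT and 2 TTTGAA in the window of Cdk1, 4 and 1 in that of Cks2, 3 and 0 in that of Cdca3, 0 and 1 in that of Knstrn, and 0 of both in that of Ndc80.

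Of the 10 lower named genes of smallest p, only Spc25 passed the test. Cdk1, Cks2, Ndc80, Knstrn and Cdca3 are described next, grouped by their known roles after their values were seen, and none of these 5 passed. Cdk1, the kinase that drives entry into mitosis (NM_019296), read -0.70, -1.16, -0.85 and -1.84 in AU_Sham and 0.50, -0.20, 0.05 and 0.22 in Y_Sham, separate groups with a difference of -1.28 ± 0.27 (SE) and an adjusted p of 0.0881. Its regulatory partner Cks2 differed by -0.79 and a further Cks2 probe by -0.80. Ndc80, the partner of Spc25 in the kinetochore, differed by -1.04, and the spindle protein gene Knstrn by -1.10. Cdca3, which promotes entry into mitosis, differed by -1.45. Adjusted p of the 5 lay between 0.076 and 0.108, above the threshold, and Knstrn (1 of 4 aged arrays above background), Cdca3 and Ndc80 (2 of 4 each) were close to background in aged cortex.

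The list of cell cycle and neurogenesis genes, which holds Cdk1 but not the other genes just named, had 14 of 18 measured members fitted lower, where 50.6% of all named genes were. At an unadjusted p under 0.05, 4 were lower, where 4.53% of named genes were, and 0 higher, namely Cdk1, the nucleotide synthesis genes Rrm2 (-1.10) and Tyms (-0.69), and Sox4 (-0.40), a transcription factor of immature neurons. The list median was -0.24, and -0.16 after 75th percentile centring. Mki67, the usual proliferation marker, differed by -0.17, and Dcx, a marker of migrating young neurons, by -0.23, both with overlapping groups.

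The other 4 lower genes that the rule named did not pass either, with adjusted p between 0.076 and 0.0881. Slc22a3, a transporter of organic cations and monoamines (NM_019230), read -0.15, -0.09, -0.01 and -0.62 in AU_Sham and 1.06, 1.28, 0.15 and 0.64 in Y_Sham, a difference of -0.996 ± 0.20 (SE) with an adjusted p of 0.076. Each young rat lay above each aged rat, with Y_Sham 3 closest to them. Sox7, a transcription factor of endothelial cells, differed by -1.01, and Ccl9, a chemokine, by -0.87. Pdlim5, a PDZ and LIM domain protein, differed by -0.72 on the probe the rule chose and by -0.06 on a further probe.

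The called probes without a symbol that fell were BF551334, ENSRNOT00000047825 and XR_591730. BF551334 read -4.66, -4.26, -4.85 and -4.77 in AU_Sham, below background on all 4 arrays, and -2.26, -2.45, -2.39 and -2.78 in Y_Sham, above it on all 4. The bound was a level at least 1.05-fold lower in aged cortex, with a limma adjusted p of 0.00513. ENSRNOT00000047825 read between 0.96 and 1.23 in aged and between 1.92 and 2.20 in young rats, a difference of -0.97 ± 0.16 (SE). XR_591730 was not above background on any aged array and was at least 2.11-fold lower there.

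Beyond C4a, C4b and Cd69, 6 higher genes that the rule named are given here, none of which passed. Prkacb, a catalytic subunit of protein kinase A (NM_001077645), read 1.27, 1.55, 1.63 and 1.29 in AU_Sham and 0.22, 0.63, 0.75 and -0.08 in Y_Sham, separate groups with a difference of 1.06 ± 0.21 (SE) and an adjusted p of 0.076. Its 3 further probes differed by 0.66, 0.04 and -0.06, so the probes of this gene disagree. Cdh23, a cadherin best known from hair cells (NM_053644), read -0.03, -0.48, -0.60 and -1.59 in AU_Sham and -2.29, -2.63, -2.49 and -2.41 in Y_Sham. The difference for Cdh23 was 1.78 ± 0.38 with an adjusted p of 0.0881.

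Trim15 differed by 1.53 on one probe and by 0.78 and 0.08 on its further probes. Klf14, a transcription factor, differed by 2.19 on one probe and by 0.09 on another, and the groups overlapped because Y_Sham 2 read -1.15. Iapp, the pancreatic hormone amylin, and C2cd6 were above background on 2 aged and 0 young arrays each, and their bounds were 1.96-fold and 1.95-fold.

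Antigen presentation genes were fitted higher in aged cortex without any member called. Class I molecules present peptides on nearly all cells, and class II molecules do so on microglia and other antigen-presenting cells. Of 25 class I presentation genes, 21 were fitted higher, where 49.4% of named genes were. Separate groups with AU_Sham higher were seen in 6 of them, and in 2.21% of named genes. At an unadjusted p under 0.05, 3 were higher, where 3.7% of named genes were. The list median was 0.24. RT1-A1 (NM_001008827) read 6.20, 6.13, 6.30 and 6.36 in AU_Sham and 5.63, 5.36, 5.64 and 5.50 in Y_Sham, a difference of 0.71 ± 0.20 (SE) with an adjusted p of 0.273. RT1-A2 (0.57) and RT1-A3 (0.64) were the other members at that level, but the RT1 genes are near-identical and their probes may share transcripts. B2m, the light chain that all class I molecules share, differed by 0.08.

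Of 10 class II genes, 9 were fitted higher, where 49.4% of named genes were. The list median was 0.63 and ranged from 0.45 to 0.81 when single animals were left out. Cd74, the invariant chain, read 3.34 ± 0.61 (SD, n = 4) in aged and 2.00 ± 0.64 in young cortex, and its groups overlapped (difference 1.34 ± 0.66 SE, unadjusted p 0.0558). RT1-Da differed by 1.17 and RT1-Bb by 1.00, also with overlap, and Ciita, the regulator that switches the class II genes on, by -0.08. The member of smallest p, RT1-Ha, had 2 aged and 0 young arrays above background, which bounds the excess in aged rats at 1.04-fold or more, and it was not called.

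Of 31 interferon-induced genes, 21 were fitted higher, where 49.4% of named genes were, and 5 had separate groups with AU_Sham higher, where 2.21% had. At an unadjusted p under 0.05, 3 were higher, where 3.7% were. The list median was 0.14. Those 3 were Irf7, a transcription factor of the interferon response, at 2.48 ± 0.29 (SD, n = 4) in aged and 1.47 ± 0.08 in young cortex, Usp18 (0.77) and Stat2 (0.61). Without Y_Sham 4 the difference of Stat2 was 0.33.

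**Figure D4:**
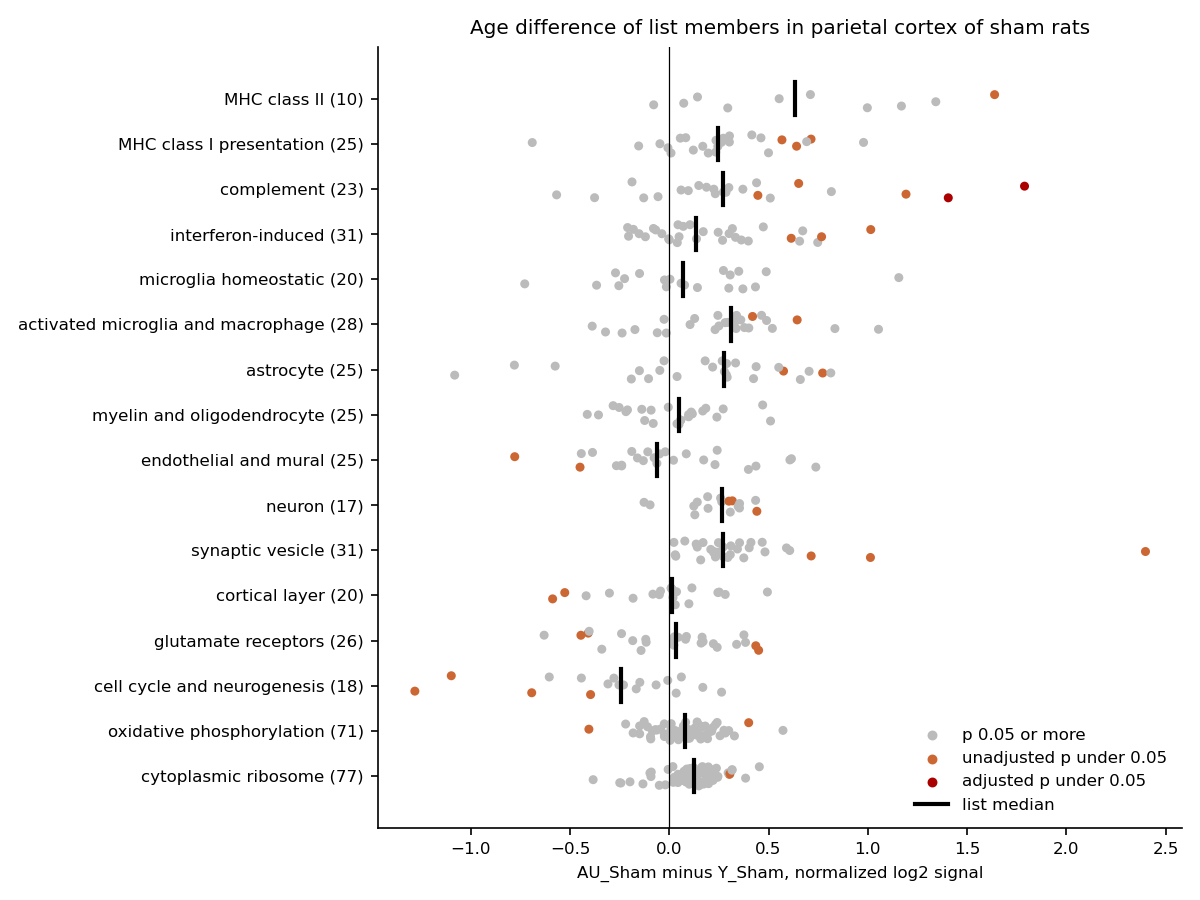
Difference between AU_Sham and Y_Sham (horizontal axis, normalized log2 signal) for the measured members of 16 gene lists, 1 point a gene, with the number of members in parentheses and the list median as a black bar. The 2 dark red points in the complement list are C4a and C4b, and the medians run from -0.24 for the cell cycle list to 0.63 for MHC class II.

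Microglia, the resident macrophages of the brain, were read through separate lists for resting and activated cells. Of 28 markers of activated microglia and macrophages, 21 were fitted higher, where 49.4% of named genes were, and their median was 0.31. Of 20 homeostatic microglial markers 12 were fitted higher, with a median of 0.07 that ranged from -0.03 to 0.18 over single animals left out. In the first list 2 genes were higher at an unadjusted p under 0.05, where 3.7% of named genes were. They were the lysosomal protease Ctsz (0.64) and the lipid carrier Apoe (0.42). The difference of Apoe was 0.16 after 75th percentile centring and 0.23 after quantile normalization, and it was -0.03 between aged unimpaired and young iTBS rats. Among the homeostatic markers 0 were at an unadjusted p under 0.05 in limma. Cx3cr1, the fractalkine receptor, differed by -0.73 and Aif1, which encodes Iba1, by -0.02. P2ry12 differed by 1.16 with Y_Sham 4 and by -0.42 without it.

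Of 25 astrocyte markers, 17 were fitted higher, where 49.4% of named genes were, and the median was 0.28. Gfap, the intermediate filament of reactive astrocytes, read 3.81 ± 0.42 (SD, n = 4) in aged and 3.04 ± 0.42 in young cortex, a difference of 0.77 ± 0.32 (SE) with an adjusted p of 0.49 and overlapping groups. Aldh1l1 differed by 0.58 and Vim by 0.81. Slc1a3 and Aqp4, which astrocytes also express in resting tissue, differed by -0.03 and -0.05. None of the glial lists held a called gene.

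Neuronal and synaptic vesicle lists were fitted higher by small amounts, with no member called. All 31 measured synaptic vesicle genes and 15 of 17 neuronal markers were fitted higher, with medians of 0.27 and 0.26, while 49.4% of all named genes were. After 75th percentile centring these medians were 0.24 and 0.15, and 45.9% of all named genes were fitted higher. The SD of log2 signals was 4.47 to 4.52 on AU_Sham arrays and 4.59 to 4.71 on Y_Sham arrays. Z-scores set these SDs equal, and what this adds to the differences of bright probes was not tested. Eno2, the neuronal enolase (NM_139325), read 8.57, 8.54, 8.65 and 8.53 in AU_Sham and 8.25, 8.21, 8.25 and 8.37 in Y_Sham, a difference of 0.30 ± 0.09 (SE) with an adjusted p of 0.323, and 0.12 after 75th percentile centring. Rbfox3, which encodes the nuclear marker NeuN, differed by 0.32, and Camk2a by 0.44. The mean level of the vesicle list per array was 5.06 to 5.26 in AU_Sham and 4.67 to 4.89 in Y_Sham.

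Among the vesicle genes, Syp, which encodes synaptophysin, differed by 1.01, Cplx1 by 2.40 and Syngr1 by 0.71, at unadjusted p under 0.05 and with overlapping groups. These were 3 of the 31 genes, where 3.7% of named genes were higher at that level. Y_Sham 4 carried much of the differences of Syp and Cplx1, since without it Syp differed by 0.60 and Cplx1 by 0.48. Cplx1 read -2.16 in that rat and up to 6.01 in the other young rats. The list median was 0.33 without Y_Sham 4.

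Glutamate receptor genes had a median of 0.03, with Gria1 (0.45) and Grin1 (0.44) higher and Grik1 (-0.45) lower among those at an unadjusted p under 0.05. Cortical layer markers had a median of 0.01, with Foxp2, a deep-layer marker, at -0.59 but 0.16 on a further probe. The neuropeptide Crh, a stress hormone also made by cortical interneurons, differed by -0.39 and by -0.31 on a further probe. Rgs9, a striatal marker, differed by 2.26, and by 0.33 without Y_Sham 4, which read -4.28 where the other 7 rats read 3.07 to 4.27.

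Ribosomal and respiratory chain genes had no settled direction. Of 77 cytoplasmic ribosome genes 66 were fitted higher with a median of 0.13, but the median was -0.10 after 75th percentile centring and -0.03 after quantile normalization. Of 71 oxidative phosphorylation genes 55 were fitted higher with a median of 0.08, which became -0.10 and -0.03 under the same scalings.

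The remaining lists held no called gene. The median of matrix and meningeal genes was 0.38, and 0.03 to 0.58 over single animals left out, lowest without AU_Sham 4. Myelin genes had a median of 0.05, which ran from -0.16 without Y_Sham 2 to 0.18 without Y_Sham 3 and was -0.02 after 75th percentile centring. Medians were -0.06 for endothelial and mural genes and -0.12 for oligodendrocyte precursor genes. Blood genes had a median of 0.17, -0.05 without Y_Sham 2, and a mean level per array of 4.16 to 4.52 in AU_Sham and 3.46 to 4.84 in Y_Sham. Choroid plexus genes had a median of 0.19 and immediate early genes of 0.22, but 0.03 and 0.04 without AU_Sham 4. Glucocorticoid targets had a median of 0.22, with Cdkn1a, a cell cycle inhibitor, at 0.73 and Fkbp5 at 0.35. Toll-like receptor genes had a median of -0.24, which was -0.11 without Y_Sham 3. Tlr9 (-0.93) was lower at an unadjusted p under 0.05, and Tlr10, above background on 0 aged and 2 young arrays, was at least 1.32-fold lower and also at that level. Of 18 senescence-associated genes 8 were fitted higher with a median of -0.02, and Il1a, an inflammatory cytokine, differed by -0.61 with separate groups, where 3.36% of named genes were separate with AU_Sham lower.

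The same age contrast was measured in other rats, the stimulated ones, and can be set beside the sham result because the groups share no animal. Slides and scan days are shared, however, and both contrasts came from the same limma fit, which gives each probe a single variance estimate. A probe called in sham rats partly through a small variance was thereby favoured for a call in stimulated rats. Calls in the stimulated rats are therefore not independent of those in sham rats, while the fitted differences come from separate animals. Between 5 aged unimpaired and 4 young iTBS rats, 26 of 32592 probes were called, 0.0798%, and 19 of them were higher. Without AU_iTBS 4 the count was 1158, and with other single animals left out it was as low as 15. Of the 14 probes that rose in sham rats, 10 were called higher there too, where 0.0583% of all probes were. Of the 4 that fell, 3 had the same sign, as had 67.8% of the 3002 probes at an unadjusted p under 0.05 in sham rats. Limma called 0 of these 4, where 0.0215% of all probes were called lower, and 1 of them was at an unadjusted p under 0.05. Over all probes the sham and iTBS differences had a Spearman correlation of 0.203, given as a description across 32592 probes of shared arrays, slides and days.

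C4a read 1.29, 2.30, 1.49, 0.64 and 1.72 in AU_iTBS and -0.14, 0.31, 0.24 and -0.08 in Y_iTBS, a difference of 1.41 ± 0.27 (SE) with an adjusted p of 0.0447. C4b differed by 1.12 ± 0.21 with an adjusted p of 0.0467. For both genes every aged rat again lay above every young rat, with AU_iTBS 4 the closest to them. C3 differed by 1.19, as in sham rats (unadjusted p 0.00015).

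The other 8 probes called in both were uncharacterized transcripts. XR_589982 averaged 3.82 in AU_iTBS and 1.35 in Y_iTBS, without overlap, a difference of 2.47 ± 0.17 (SE) with an adjusted p of 1.25e-07. XR_598705 differed by 3.20 and XR_589995 by 3.80. Spc25 read -1.55 to -1.02 in AU_iTBS and -0.59 to -0.18 in Y_iTBS, separate groups with a difference of -0.85 ± 0.18 and an adjusted p of 0.106. The other cell division genes differed less than in sham rats, Cdk1 by -0.53, Cks2 by -0.37, Ndc80 by -0.57, Knstrn by -0.28 and Cdca3 by -0.25. The cell cycle list had a median of -0.13 in stimulated rats, with 8 of 18 members fitted higher. BF551334 differed by -0.27, but was above background on only 1 aged and 0 young stimulated arrays.

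Cd69, XR_344712, XR_596569 and XR_344346 were not above background on any of the 9 stimulated arrays, so no age difference was measured for them there. When the age difference itself was compared between sham and stimulated rats, 0 probes were called by limma, with 1993 at an unadjusted p under 0.05. The smallest adjusted p was 0.148, for Iapp. Iapp too was not above background on any of the 9 stimulated arrays, so its age difference was not measured there.

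Slc22a3 and Klf14, short of the threshold in sham rats, were called in stimulated rats. Slc22a3 read -0.36 to 0.12 in AU_iTBS and 0.69 to 1.26 in Y_iTBS, and fell by 1.13 with a limma adjusted p of 0.0105. Klf14 rose there, reading -0.83 to -0.31 in AU_iTBS and -4.53 to -2.92 in Y_iTBS, with no young array above background. Other genes short of the threshold in sham rats were not called. Prkacb differed by 0.06, Pdlim5 by 0.09 and Ccl9 by -0.01 in stimulated rats, on the probes the rule chose. Cdh23 differed by 1.76, Trim15 by 0.74 and Sox7 by -0.33, and C2cd6 was not above background on any stimulated array. Class II genes had a median difference of 0.82 in stimulated rats with 6 of 10 higher at an unadjusted p under 0.05, and class I genes 0.56 with 14 of 25, where 8.35% of all probes were higher at that level. Homeostatic microglial markers had a median of -0.31 there, with 5 of 20 lower at that level, where 5.87% of all probes were, and whether any list differed between sham and stimulated rats was not tested.

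**Figure D5:**
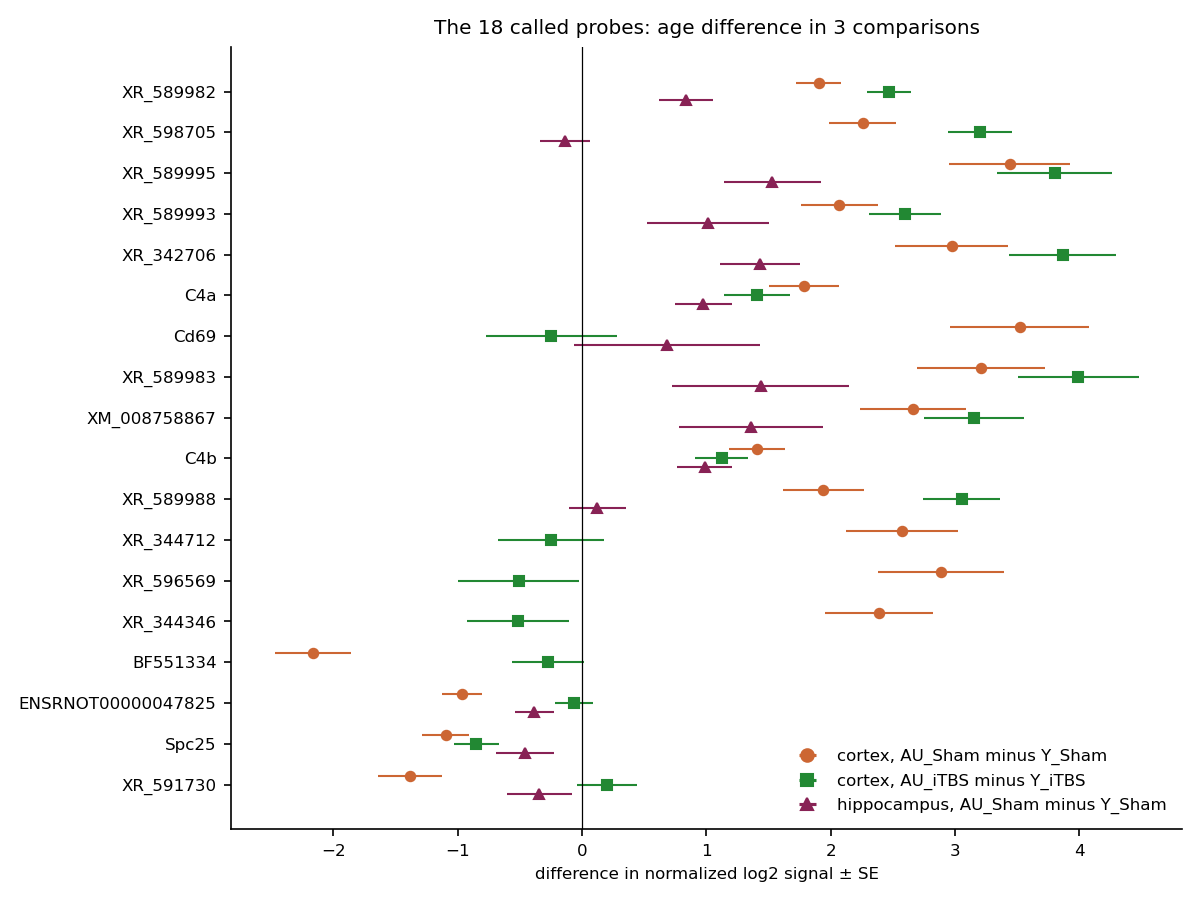
Age difference ± SE (horizontal axis, normalized log2 signal) of the 18 called probes in cortex of sham rats (circles), cortex of iTBS rats (squares) and hippocampus of the sham rats (triangles). The 10 probes called in both cortex comparisons lie to the right of 0 in circles and squares, the squares of Cd69, XR_344712, XR_596569 and XR_344346 come from signals below background, and 4 probes were not tested in hippocampus.

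Aged impaired sham rats were compared with the unimpaired ones, and limma called 0 of 32592 probes, with 2026 at an unadjusted p under 0.05. C4a read 1.38, 0.81, 1.36 and 1.85 in AI_Sham, a difference from AU_Sham of -0.25 (unadjusted p 0.393), and C4b differed by -0.22. Cd69, above background on 2 of 4 AI_Sham arrays, differed by -1.81 (unadjusted p 0.00401). BF551334, above background on 2 of 4 AI_Sham arrays and 0 AU_Sham arrays, differed by 1.66 (limma unadjusted p 2.47e-05, adjusted p 0.241). Against the same 4 young rats, which both comparisons share, AI_Sham differed by 1.54 for C4a, 1.19 for C4b, 2.40 for XR_589982 and -0.69 for Spc25, where AU_Sham differed by 1.79, 1.40, 1.90 and -1.10. For BF551334 AI_Sham differed from the young rats by -0.51 and AU_Sham by -2.17. The cell cycle list had a median of 0.03 between AI_Sham and Y_Sham, with 10 of 18 members fitted higher.

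In hippocampus of the same 8 rats, 1 of 32412 probes was called, 0.00309%. It was Cdh23, which read -0.05, -0.12, 0.16 and -0.17 in AU_Sham and -1.19, -1.24, -1.23 and -1.56 in Y_Sham, and rose by 1.26 ± 0.18 (SE) with a limma adjusted p of 0.031. The count was 58 without AU_Sham 1 and 5 without Y_Sham 3. It was 0 when AU_Sham 2, 3 or 4 or Y_Sham 1, 2 or 4 was left out, and 0 with no filter on dim probes. Of the 18 probes called in cortex, 14 were tested in hippocampus and 13 had the same sign there. Over the 31289 probes tested in both regions, the age differences had a Spearman correlation of 0.326. The share of all probes with the same sign was not counted, so nothing is read from the 13. C4a read 1.10, 1.32, 1.38 and 1.85 in aged and 0.39, 0.57, 0.52 and 0.27 in young hippocampus, separate groups with a difference of 0.97 ± 0.23 and an adjusted p of 0.519. C4b differed by 0.99 ± 0.22, with AU_Sham 4 highest in hippocampus too, as in cortex. These are the same animals, so the regions are not independent of each other.

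The age difference was tested between regions as the difference within each animal, and 1 of 33715 probes was called, 0.00297%, namely XR_598705. It read 0.99, 0.70, 1.04 and -0.01 in aged and 0.57, 0.70, 0.86 and 1.14 in young hippocampus, overlapping levels with a difference of -0.14 ± 0.20 (SE). In cortex it rose by 2.26, and the difference between regions was 2.39 ± 0.35 with a limma adjusted p of 0.0414. The call was lost when AU_Sham 2 or 3 or Y_Sham 1, 2 or 4 was left out. For C4a the age difference was 0.82 ± 0.32 larger in cortex (unadjusted p 0.02, adjusted p 0.988), and for Spc25 it was -0.64 ± 0.27 (unadjusted p 0.0296, adjusted p 0.988).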

How the data were processed

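Total RNA of each rat was labelled with Cy3 and hybridized, 1 sample an array, to Agilent SurePrint G3 Rat arrays. The authors extracted each spot's intensity with Feature Extraction 12.0.3.1, which subtracts background with spatial detrending, and the deposited scanner files hold these intensities and the software's flags. The authors also deposited a score per probe, the z-score of the log signal over each array. Groups came from the array titles, and rats are separate animals.

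Control spots and outlier spots were left out, spots of a probe averaged, and each array's log2 signal turned into z-scores, then multiplied by 4.06. Z-scores computed over all spots of an array, before these steps, differed from the deposited scores by at most 0.005. Probes well above background on at least 3 of the 24 first cortex arrays were tested with limma 3.58.1 in R 4.3.3, with 6 group means over these 24 arrays, eBayes and Benjamini-Hochberg adjustment. Technical repeats and 1 array whose labels disagree were not used. Hippocampus was fitted alike, and the regions were compared through within-animal differences. The number of arrays limits the precision. Probes were named through their RefSeq accession, and 46.3% of the 45598 probes got 1 symbol. Lists used the brightest named probe of each gene.

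The text names the 10 higher and 10 lower genes of smallest p, those past the threshold first, the other called probes, and from each list its called members or that of smallest p, with defining markers for levels. The comparison and the gene lists were chosen with earlier results of these data known. Alternatives were other scalings, backgrounds, filters, batch blocks, repeats and animals left out, and the selection rule of the study's methods. That rule uses ANOVA and z-test p, a false discovery rate under 0.3, and a z-ratio above 1.5 in size. It also requires a positive average z-score over the groups compared. The fit was tested on simulated data. Results of some named genes are not reported here. Python 3.11.15 drew the plots.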

Additional observations from a re-analysis of the deposited data

Results flagged for a closer look

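Single animals lay far from the other 3 of their group for some of the named probes, by Dixon's ratio, the gap to the nearest other rat over the range of the group. Of 126 groups of 4 checked, 12 were marked, where chance marks about 1 in 20. Y_Sham 4 accounted for 5 of the marks: Rgs9 read -4.28 against 3.07 to 3.75 in the other young rats, Cox7c 4.97 against 5.70 to 5.77, Crh 3.87 against 3.59 to 3.64, RT1-Ha -3.19 against -4.81 to -4.70, and XR_596569 -4.10 against -4.77 to -4.66. The probes of Rgs9, RT1-Ha and XR_596569 were below background on that array.

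Y_Sham 1 was apart for Iapp (-3.63 against -4.71 to -4.70) and C2cd6 (-2.80 against -5.00 to -4.76), both below background. Y_Sham 3 was apart for Vcan (2.82 against 3.26 to 3.32) and Il1a (0.84 against 0.22 to 0.27).

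Among the aged rats, AU_Sham 3 was apart for Iapp (-0.14 against -2.61 to -2.21) and Trim15 (0.43, the lowest of the others -1.08), and AU_Sham 1 for XM_008758867 (-2.90 against -1.24 to -1.16). Of these, XM_008758867 and XR_596569 were called with age, and their groups stayed separate.

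The age difference of XR_598705 differed between regions, by 2.39 on the log2 scale (limma adjusted p 0.0414), with a rise in cortex and overlapping groups in hippocampus. The cause was not tested.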

How the results depend on the processing

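The count of 18 probes called between AU_Sham and Y_Sham in cortex was 21 after 75th percentile centring, 22 after quantile normalization, 17 with the deposited z-scores and 16 with technical repeats averaged. It was 7 with normexp background and quantile normalization, 30 with no filter on dim probes, 6 with probes well above background on every array compared, 66 with the slide as a block, 43 with the scan day as a block, and 138 by the study's selection rule. These settings, in the order given, also called 16, 17, 17, 14, 7, 18, 6, 11, 18 and 4 of the original 18 probes. The last rule also drops probes whose average z-score over the groups compared is not positive. Leaving out each animal in turn gave 5 (Y_Sham 1 absent) up to 35 (AU_Sham 1 absent). With only the 8 arrays compared it was 6. With the replicate number as a block on those arrays it was 0 in limma, with 3054 probes at an unadjusted p under 0.05. The numbers do not pair the rats: deviations of rats with the same number correlated at 0.207, -0.10, 0.104 and -0.06, and not every rat correlated best with its own number. With the slide or the scan day as a block on those 8 arrays, chosen after seeing the data, it was also 0.

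The 26 probes called between AU_iTBS and Y_iTBS became 7 with probes well above background on every array and 15 with the slide as a block, and ran from 15 to 1158 with animals left out, the highest without AU_iTBS 4. The repeat array of that rat correlated better with AI_Sham 2 (0.849) than with its own first array (0.832). For the difference between sham and iTBS the count of 0 was 1 with no filter and 0 to 1 with animals left out, and for AI_Sham against AU_Sham 0 to 2. In hippocampus the count of 1 was 2 after 75th percentile centring, 0 with no filter, 2 with the slide as a block and 0 to 58 with animals left out, the highest without AU_Sham 1. For the difference between regions it was 0 to 1. Called list members numbered 2, and 0 without AU_Sham 4 or Y_Sham 1. The difference in probes above background ran from -2.62 to -1.85 percentage points. Of 1447 values of named probes under alternatives, 1231 kept their side of the threshold or moved within the spread between replicates, 151 lost the call, 15 gained it, 50 moved further and 0 reversed a called sign. Where no cause is given above, it was not tested.

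Of the 18 called probes, 8 were below background on every array of one group, so their size is only bounded. Scan day was partly aligned with age, 3 of 4 aged and 2 of 4 young arrays being from day 1. Slide was also partly aligned with age. AU_Sham 2, 3 and 4 shared a slide on which Y_Sham 4 was the only young array of this comparison. AU_Sham 1, Y_Sham 1 and Y_Sham 2 shared another slide, and Y_Sham 3 was on a slide of its own among these arrays. With 4 rats a group and these alignments, a gene that was not called is not shown to be equal between ages.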
